A study of Mus musculus with 18 samples.

Results

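The 20807 protein-coding genes of mouse chromosomes 1 to 19 were sorted by the histone marks found around their transcription start in bone marrow-derived macrophages (BMDM) of mdx mice. The 2 marks, acetylation and trimethylation of lysine 27 of histone H3 (H3K27ac and H3K27me3), were read from 1 peak list each. A gene was counted as acetylated with any H3K27ac peak within 5 kb of its 5' end on either side, and as methylated with any base of the same window under an H3K27me3 peak. The annotation was GENCODE vM21, which holds 21951 protein-coding genes in all; those on the other chromosomes were not used. "Methylated" refers below to the histone and never to DNA. Of the 20807 genes, 5036 carried acetylation only (24.2%, Wilson 95% interval 23.6 to 24.8), 7146 methylation only (34.3%, 33.7 to 35.0), 851 both marks (4.09%, 3.83 to 4.37) and 7774 neither (37.4%, 36.7 to 38.0).

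H3K27 can carry an acetyl group or methyl groups, but not both at once on the same tail. Acetylation, written by the acetyltransferases p300 and CBP, marks active promoters and enhancers. Trimethylation is written by EZH1 or EZH2 in Polycomb repressive complex 2 and lies in broad domains over silent genes, among them developmental regulators of other lineages. A gene can still be found with both marks in a population of cells when they sit on neighbouring nucleosomes, on the separate alleles or in different cells. Peaks from pooled chromatin do not tell these apart.

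The study compared BMDM of WT, mdx and mdxTLR4-/- mice, and only its mdx lists were used here. The mdx samples carry the strain label Dmdmdx-4Cv, a line with a mutation in the dystrophin gene, and the mice were males on a C57BL/6J background according to the methods of the study. The marrow was grown for 7 days in medium with L929 cell supernatant, a source of macrophage colony-stimulating factor, and the cells were not stimulated. Each mark had 2 mdx ChIP libraries, with labelled ages of 14 and 15 weeks for H3K27me3 and of 21 and 22 weeks for H3K27ac, so that, taken as labelled, age and mark cannot be told apart. The labelled ages rise by 1 week from library to library across the series, and whether they are the true ages of the mice is uncertain. The H3K27me3 inputs of mdx BMDM are labelled 8 and 9 weeks, and the 1 H3K27ac input carries a C57BL6 label without a genotype. Dystrophin is chiefly a muscle protein, and the short isoform Dp71 made in myeloid cells is described as intact in this strain.

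Because the authors merged the replicates before calling peaks, each mark has 1 list, the spread between mice cannot be given and no p-value is printed. The intervals below treat genes as independent, which neighbouring genes are not, and cover the number of genes alone. On chromosomes 1 to 19 the H3K27ac list held 11581 peaks with a median length of 1800 bp and a median of 10 ChIP reads, the smallest with 5. The H3K27me3 list held 41558 peaks with a median length of 3400 bp and 89 reads, the smallest with 17. In all, the peaks held 186508 reads for H3K27ac over 24.1 Mb and 10173431 reads for H3K27me3 over 260 Mb. Such sums leave out all reads outside peaks, so library depth is unknown. A gene without an H3K27ac peak is a gene where none was called. Of the H3K27ac peaks, 44.5% touched a window of a protein-coding gene, against 20.4% of the H3K27me3 peaks.

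The promoters of 5 genes that the results turn on are shown as examples of genes in each class, not as typical sequences of it: Spi1 for acetylation, Hoxa10 and H2-Q10 for dense methylation, C1qa for both marks, and Chil3 for neither. Chil3, a marker gene of the study, was chosen after its class was known. Each line holds the 250 bases before the annotated start, 5′ to 3′ on the strand of the gene, from the RefSeq genome GRCm38.p6, with CG dinucleotides in capitals. They lie at chr2:91082140-91082389 (plus strand), chr6:52240855-52241104 (minus), chr17:35469839-35470088 (plus), chr4:136898804-136899053 (minus) and chr3:106167565-106167814 (minus).
Spi1: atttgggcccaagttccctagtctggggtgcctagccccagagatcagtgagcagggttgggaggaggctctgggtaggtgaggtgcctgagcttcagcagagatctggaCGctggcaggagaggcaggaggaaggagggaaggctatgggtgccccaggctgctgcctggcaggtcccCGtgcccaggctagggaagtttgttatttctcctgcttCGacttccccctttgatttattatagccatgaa
Hoxa10: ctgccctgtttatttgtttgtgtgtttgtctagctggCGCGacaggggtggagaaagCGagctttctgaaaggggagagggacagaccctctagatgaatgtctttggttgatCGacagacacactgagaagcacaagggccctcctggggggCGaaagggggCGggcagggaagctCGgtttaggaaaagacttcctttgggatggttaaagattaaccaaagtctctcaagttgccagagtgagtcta
H2-Q10: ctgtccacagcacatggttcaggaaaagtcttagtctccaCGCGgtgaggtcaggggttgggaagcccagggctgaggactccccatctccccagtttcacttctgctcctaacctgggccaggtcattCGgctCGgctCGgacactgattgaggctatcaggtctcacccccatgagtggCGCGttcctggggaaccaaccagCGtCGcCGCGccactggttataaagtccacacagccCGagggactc
C1qa: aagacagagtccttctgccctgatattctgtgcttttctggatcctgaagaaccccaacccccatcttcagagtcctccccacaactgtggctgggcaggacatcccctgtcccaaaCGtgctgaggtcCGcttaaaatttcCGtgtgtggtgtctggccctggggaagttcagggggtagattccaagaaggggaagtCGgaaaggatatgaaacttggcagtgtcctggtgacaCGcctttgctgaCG
Chil3: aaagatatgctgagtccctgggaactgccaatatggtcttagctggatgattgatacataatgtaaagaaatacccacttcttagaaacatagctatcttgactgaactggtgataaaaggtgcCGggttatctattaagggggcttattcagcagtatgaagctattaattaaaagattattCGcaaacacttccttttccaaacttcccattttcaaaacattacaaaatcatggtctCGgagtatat
The Spi1 stretch holds 3 CG dinucleotides in spite of a G+C content of 58.0%, and 1 copy of the PU.1 core GAGGAA, 122 bases before the start. That is a CG-poor promoter in a class whose members were mostly CG-rich: over the 300 bases around the start, its ratio of observed to expected CG was 0.17 against a class median of 0.77, and that of C1qa 0.31 against 0.70. Hoxa10 holds 7 and H2-Q10 12 CG dinucleotides, with 1 TATA box (TATAAA or its complement) in H2-Q10. C1qa holds 6 and Chil3 3, the latter at a G+C content of 36.4%. None of Hoxa10, H2-Q10, C1qa and Chil3 holds GAGGAA or its complement in these bases.

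The 2 marks were seldom found around the same start. Methylation was present in 851 of 5887 acetylated genes (14.5%, interval 13.6 to 15.4) and in 7146 of 14920 genes without acetylation (47.9%, 47.1 to 48.7), a ratio of 3.31. Read the other way, 10.6% of methylated genes were acetylated, against 39.3% of genes without methylation. The share fell with the strength of either mark. Among genes with 5 to 7 H3K27ac reads in the peaks of the window, 19.8% carried methylation, and the share was 18.0% at 8 to 15 reads, 11.0% at 16 to 31, 7.46% at 32 to 63 and 3.31% (6 of 181 genes) at 64 reads or more. With methylation over up to 20% of the window 27.9% of genes were acetylated, with 40 to 60% of the window 9.64%, and with the whole window covered 0.757% (12 of 1585). The ratio stayed above 1 under all 13 alternatives tried, from 2.00 with windows of 10 kb to 16.8 when methylation had to cover at least 50% of the window. The number of genes with both marks rested on the window: 124 at 1 kb and 1849 at 10 kb.

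**Figure D1:**
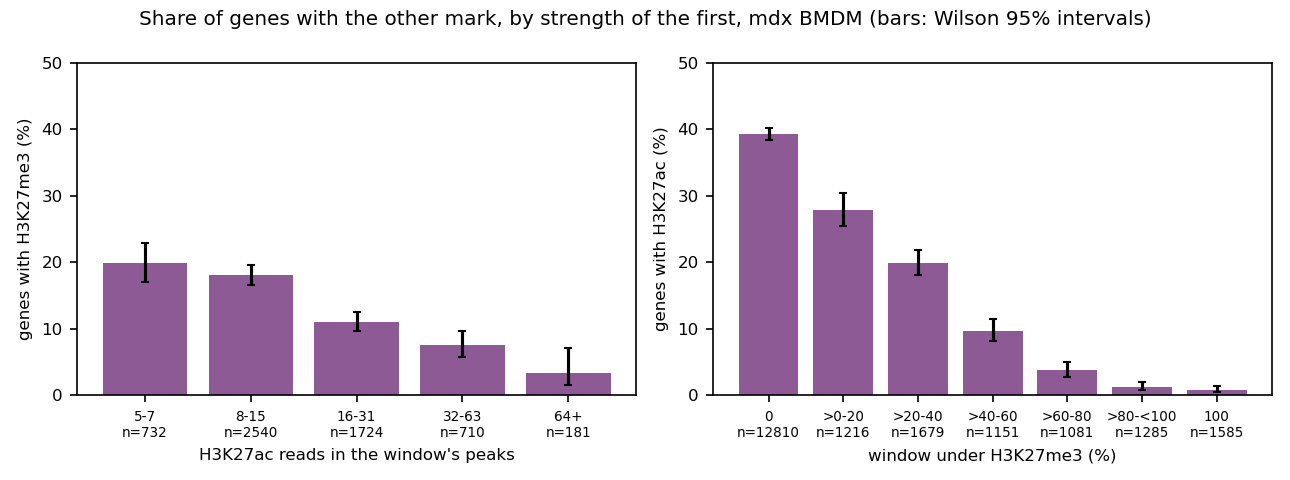
Share of protein-coding genes with the other mark in mdx BMDM: left, genes with H3K27me3 (%) by the number of H3K27ac reads in the peaks of the window; right, genes with H3K27ac (%) by the percent of the window under H3K27me3. Error bars are Wilson 95% intervals over genes and n is the number of genes; the left shares go down from 19.8% to 3.31% and the right ones from 39.3% to 0.757%.

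Where they did meet, each mark was weaker than on its own. The median acetylated gene had 15 H3K27ac reads (quartiles 9 and 25) with acetylation only and 11 (8 and 17) with both marks. Methylation covered a median of 66.4% of the window (34.0 and 93.5%) in genes with methylation only and 24.6% (14.0 and 36.5%) in genes with both. The whole window was covered in 1573 genes with methylation only, which is 22.0% of them, and in 12 genes with both. These values come from the peaks that sorted the genes and are a description.

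Within the window the marks kept to different places. The start itself lay under H3K27ac in 77.0% of the genes with acetylation only and 63.2% of the genes with both, and under H3K27me3 in 70.4% of the genes with methylation only and 13.6% of the genes with both. Of the 851 genes with both marks, 531 had the start under H3K27ac alone, 109 under H3K27me3 alone, 204 under no peak and 7 under both. Only 82 of them (9.64%, 7.83 to 11.8) had a single base under both marks, so that in the rest the peaks lay side by side. Methylation was found on the upstream side of the start alone in 570 (67.0%), on the downstream side alone in 124 (14.6%), and on both sides in 157. Among the 539 genes with both marks and no other protein-coding start within 10 kb, the upstream-only share was 75.5% (71.7 to 79.0) and the downstream-only share 9.09%. In genes with methylation only, 76.4% had methylation on both sides, 15.4% upstream only and 8.13% downstream only.

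**Figure D2:**
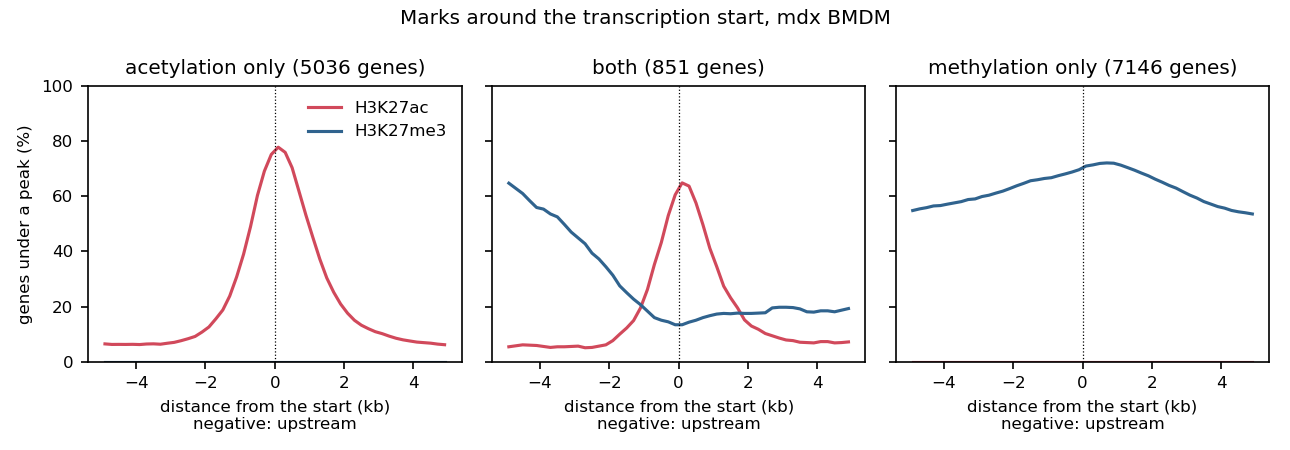
Percent of genes of each class under an H3K27ac (red) or H3K27me3 (blue) peak, at the centres of 200 bp bins from 5 kb upstream to 5 kb downstream of the start. H3K27ac peaks just after the start in both acetylated classes (77.8% and 64.9% of genes at 100 bp); in genes with both marks H3K27me3 drops from 64.7% at 4900 bp upstream to 13.4% at 100 bp upstream and is 19.3% at 4900 bp downstream, while in genes with methylation only it is highest, 72.1%, at 700 bp downstream. The mark that a class lacks is at 0 by the rule.

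Genes that name the macrophage were mostly acetylated when any H3K27ac peak counted. Of 22 macrophage identity markers, 18 carried acetylation only, 1 both marks, 3 neither and 0 methylation only, against 24.2, 4.09, 37.4 and 34.3% of all genes. With H3K27ac peaks of at least 20 reads required, 9 markers had acetylation only, 1 both and 12 neither. Under that limit 7.63% of all genes had acetylation only. Lyz2 (lysozyme) had 159 H3K27ac reads, Sirpa (the receptor of CD47) 138, Tyrobp (an adaptor of activating receptors) 59 and Cd14 (the coreceptor of TLR4) 38. The 159 reads of Lyz2 are those of 2 whole peaks, which covered 9201 bp of its window and reached beyond it. Cd36, Csf1r and Cx3cr1 had neither mark. For Csf1r, the receptor of macrophage colony-stimulating factor, the nearest H3K27ac peak was 5.00 kb from the annotated 5' end, just outside the window, and with all its protein-coding transcript starts used it had acetylation only. The same change of starts moved Nr1h3, a lineage factor, from acetylation only to neither, Nr4a1 from neither to methylation only, Aim2 from methylation only to both, Clec10a from acetylation only to both, and Pdcd1lg2 from neither to acetylation only. Fcgr3, an Fc receptor for IgG, was the gene with both: 46 H3K27ac reads began 3535 bp downstream of the start, and an H3K27me3 peak of 35.0 kb, which ended 1334 bp downstream, covered the start at 194 reads per kb. The median H3K27me3 density of the peaks at methylation-only genes was 39.5 reads per kb.

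Most transcription factors of the lineage were acetylated as well when any H3K27ac peak counted. Of 22, 13 carried acetylation only, 5 both, 2 methylation only and 2 neither. With H3K27ac peaks of at least 20 reads required, 9 had acetylation only, 2 both, 5 methylation only and 6 neither. Zeb2 (a zinc finger factor of macrophage identity) had 216 H3K27ac reads, Klf6 154, Irf5 124, and Spi1, which encodes PU.1, had 104. Spi1 (chromosome 2, 91082390 to 91115756) had a peak of 96 reads from 389 bp upstream to 5210 bp downstream of its start and a smaller one of 8 reads further upstream. The C/EBP factors were weaker, with 9 reads for Cebpa and 22 for Cebpb, and in neither gene was the start base under the peak. The genes with both marks included Runx1, Fli1, Tfeb and Irf8. In Runx1, H3K27ac ran from 451 bp upstream to 3748 bp downstream (37 reads), and a methylated domain of 11.2 kb ended 1852 bp upstream. Fli1 had the same layout, with 31 H3K27ac reads over the start and methylation from 2540 bp upstream outwards. Irf8 had 7 H3K27ac reads inside the gene, 3243 bp downstream, and a small methylated peak of 44 reads upstream. Pparg, the lipid-sensing nuclear receptor, and Batf3, a dendritic cell factor, carried methylation only, over 20.0% and 36.0% of the window.

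**Figure D3:**
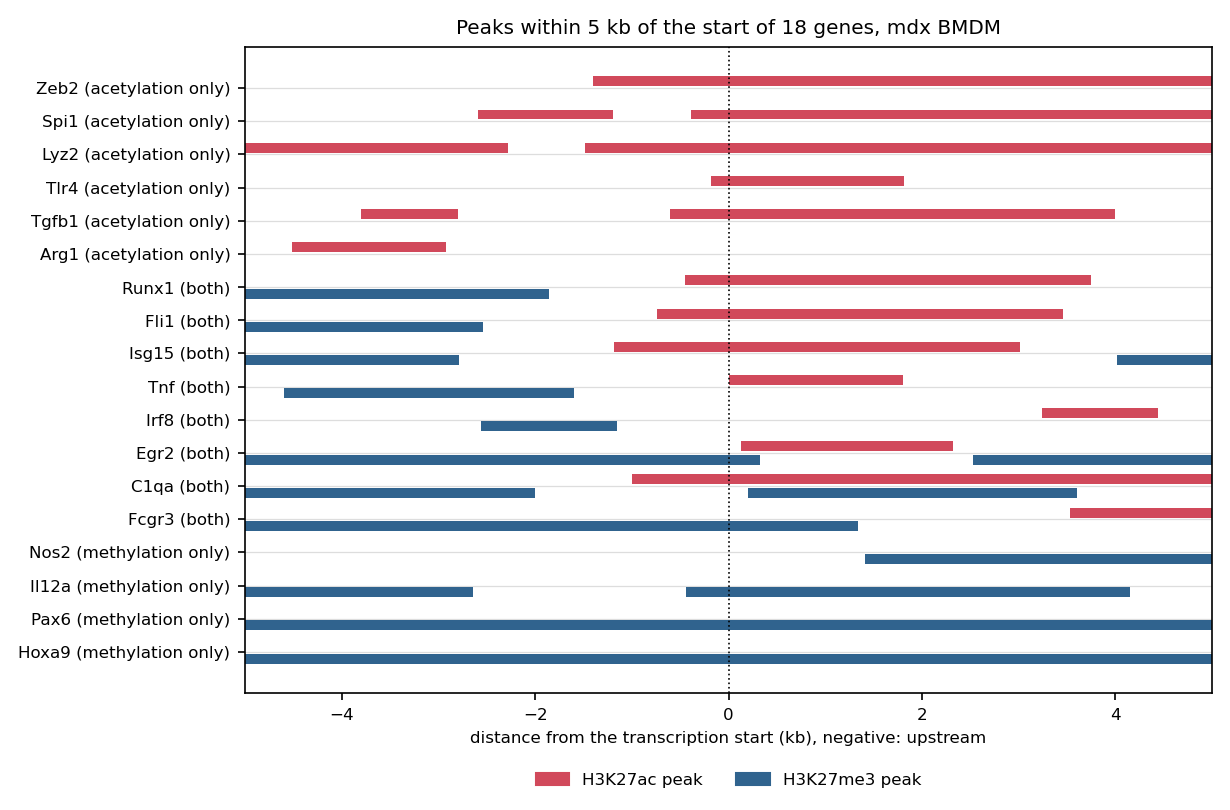
Peaks of H3K27ac (red) and H3K27me3 (blue) within 5 kb of the start of 18 genes, drawn to scale by distance from the start in kb, upstream to the left and cut at the window's edge. In Runx1, Fli1, Isg15 and Tnf the H3K27me3 peaks lie beside the H3K27ac peak, in Egr2 one overlaps its edge, in C1qa an H3K27me3 peak lies inside the H3K27ac peak, and Pax6 and Hoxa9 are under H3K27me3 from edge to edge.

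The marker genes that the study uses for inflammatory and alternative activation fell into all 4 classes. Nos2 (inducible nitric oxide synthase, chromosome 11, 78920787 to 78960254) carried methylation only: a 33.4 kb domain with 1779 reads began 1414 bp inside the gene, covered 35.9% of the window and left the start free, and the nearest H3K27ac peak was 32.6 kb away. Il12a, the p35 subunit of interleukin-12, carried methylation over 69.6% of the window, with a peak of 240 reads from 443 bp upstream to 4156 bp downstream. Tnf carried both marks in separate places, an H3K27ac peak of 9 reads from 7 to 1806 bp downstream and an H3K27me3 peak of 85 reads from 4593 to 1594 bp upstream. Il6 had neither within 5 kb, with H3K27me3 8.09 kb away and H3K27ac 141 kb away. On the other side, Tgfb1 had 37 H3K27ac reads, Mrc1 (the mannose receptor CD206) 16 and Arg1 (arginase 1) 7, all with acetylation only. The Arg1 peak lay 2917 bp or more upstream and did not reach the start. Chil3, which encodes Ym1, had neither, and its nearest peaks were 24.8 kb away for H3K27ac and 47.0 kb for H3K27me3. Tlr4 itself had acetylation only, 29 reads from 183 bp upstream to 1816 bp downstream.

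Beyond these markers, 6 of the 26 inflammatory cytokines and effectors were acetylated, a share close to the 28.3% of all genes. Of them, 4 carried acetylation only, 2 both, 8 methylation only and 12 neither. Cxcl10 (29 reads), Ccl3 (21), Il23a (17) and Ccl4 (13) were the acetylated ones, Ccl12 (52 reads and 30.4% of the window methylated) and Tnf had both, and Ccl8 (90.0%), Il12a, Il1b (42.6%) and Nos2 were the most covered with methylation only. Ccl5, Cxcl1, Cxcl2 and Cxcl3 were among those with neither. Of 26 pattern recognition receptors and adaptors, 17 carried acetylation only, led by Nlrp3 (93 reads), the inflammasome sensor, Ly96 (51), which encodes the TLR4 partner MD-2, Tlr6 (50) and Casp1 (37). The 4 with methylation only were Aim2 (92.0% of the window), Tlr12 (60.0%), Traf6 (39.7%) and Tlr5 (18.0%). Clec4e, Ticam1, Tirap, Tlr1 and Tlr11 had neither. With H3K27ac peaks of at least 20 reads required, 7 of the 26 had acetylation only and 15 neither. Of 23 alternative activation genes, 8 had acetylation only, among them Stab1 (108 reads), Igf1 (69) and Il4ra (38), 7 methylation only, among them Cd209a (100% of the window), Ccl24 (88.0%) and Ccl22 (57.9%), and 8 neither. The shares were 34.8, 30.4 and 34.8%, against 24.2, 34.3 and 37.4% of all genes. Acetylation only made up 65.4% of the pattern recognition list.

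Interferon-stimulated, early response and lineage factor genes held the highest shares of both marks among the lists drawn in the bar chart, 25.9, 20.0 and 22.7% against 4.09% of all genes. That order held for this window and limit. With H3K27me3 over at least 50% of the window, 0 of 27, 2 of 20 and 0 of 22 had both; with the 5 kb upstream only, 6, 0 and 4; and with windows of 10 kb the 9, 10 and 6 genes stood beside 21 of 75 ribosomal protein and 13 of 47 proteasome genes. Of 27 interferon-stimulated genes, 15 had acetylation only, led by Trim25 (48 reads), Irf9 (43), Mx1 (40) and Bst2 (38), 7 both, 2 methylation only (Rtp4 and Oas2) and 3 neither, among them Ifi44 and Rsad2. Ifit3 had 40 H3K27ac reads and 20.0% of the window methylated, Irf7 25 reads and 14.8%, Zbp1 25 reads and 41.2%, and Isg15 23 reads and 32.0%, all with the start under H3K27ac. Isg15 had methylation on either side, ending 2783 bp upstream and beginning 4018 bp downstream. Of 20 early response genes, 11 had acetylation only, led by Zfp36 (124 reads in a peak that covered the whole window of 10001 bp), Jun (80), Junb (69) and Fos (39). Nr4a3, Egr1, Egr2 and Fosb had both, with 47.5, 22.0, 78.0 and 54.0% of their windows methylated. At Egr2, a zinc finger factor of alternative activation, 9 H3K27ac reads sat between 2 methylated peaks, the first of which ran over the start and shared 200 bp with the H3K27ac peak. Egr3 had methylation only (84.0%), and Atf3, Dusp1, Myc and Nr4a2 had neither.

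Most ribosomal protein and proteasome genes were acetylated when any H3K27ac peak counted. Of 75 ribosomal protein genes, 46 had acetylation only, 8 both, 5 methylation only and 16 neither, with a median of 14 reads where acetylated. The corresponding counts were 26, 7, 7 and 7 of 47 proteasome genes and 32, 6, 12 and 26 of 76 respiratory chain genes. With H3K27ac peaks of at least 20 reads required, 8 of 75 ribosomal protein and 10 of 47 proteasome genes had acetylation only and 0 had both. Under that limit 7.63% of all genes had acetylation only. Lysosome genes had 17 of 28 with acetylation only, among them Psap (281 reads), Ctsb (215), Ctsd (126) and Grn (88), and 7 with neither. Of 32 glycolysis and citrate cycle genes 20 had acetylation only, led by Aldoa and Gapdh (34 each) and Pkm (33), and Eno2, the neuronal enolase, was methylated over 100% of its window. The annotation holds Aldoa under 2 gene identifiers, of which the second fell among the methylated genes at 23.1%. Replication-dependent histone genes were the most acetylated list, 60 of 67 with acetylation only and a median of 57.5 reads where acetylated, against 15 for the median gene with acetylation only. Their copies are near-identical and clustered, and reads may have been split or shared between them. Rpl28 and Rpl35, which had neither mark, encode ribosomal proteins used by every cell, so a missing H3K27ac peak is not by itself a reading of a silent gene.

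The writers and erasers of these marks included 10 acetylated genes of 16, among them Kdm6b (42 reads), an H3K27 demethylase, Eed (23) and Rbbp4 (20), subunits of Polycomb repressive complex 2, and Ep300 (21). Phf19 and Crebbp, which encodes CBP, had methylation only, over 42.3 and 40.0% of the window and not over the start, and Aebp2, Ezh1, Ezh2 and Hdac3 had neither. Cyclin-dependent kinase inhibitors were divided. Cdkn1a (38 reads), Cdkn1b (22) and Cdkn2c (14) had acetylation only, Cdkn1c (100%), Cdkn2b (99.6%) and Cdkn2a (90.0%), which are classical Polycomb targets, had methylation only, and Cdkn2d had neither.

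Markers of other cell types had methylation only more often than all genes, 52.9 to 84.2% of each list against 34.3%. The share with neither was 35.3 to 40.0% in these lists apart from the T and B cell markers (5.26%), near the 37.4% of all genes. Of 19 T and B cell markers, 16 had methylation only, with Gata3, Pax5, Ebf1 and Bcl11b at 100% of the window, 1 both (Cd3d), 1 neither (Cd79a) and 1 acetylation only (Ms4a1, 7 reads). Of 31 myogenic factors and muscle genes 17 had methylation only, among them Pax7, Des, Pax3 and Myod1 at 100%, 12 neither, and 2 acetylation only, Tnni2 (14 reads, away from the start) and Utrn (7 reads over the start), which encodes utrophin, the homologue of dystrophin. Neutrophil granule genes had 9 of 15 with methylation only, led by Mmp9 (100% at 103 reads per kb), Gfi1 (77.6%), Mpo (64.0%) and S100a9 (62.0%), and 6 with neither. Erythroid and progenitor genes had 9 of 16 with methylation only, among them Gata2, Gfi1b and Hba-a1 at 100%, 6 with neither, and Tal1 with both, where 1000 bp lay under both marks. Fibroblast and endothelial markers had 9 of 17 with methylation only (Pdgfra and Col1a1 at 100%), 6 with neither, and Pecam1 (47 reads), which myeloid cells also express, and Vwf (7 reads) with acetylation only. No acetylation was called at 15 of 15 neutrophil granule genes, where 28.3% of all genes were acetylated.

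Developmental regulators were nearly all methylated. All 19 Wnt ligands and 60 of 61 genes of the paired box, homeobox and T-box families other than Hox (Pax, Lhx, Nkx, Irx, Dlx, Tbx and related genes) carried methylation only, the exception being Tbx6 with neither, and the window was wholly covered in 12 and 44 of them. Of 39 Hox genes, 35 had methylation only, 3 both, among them Hoxa2 and Hoxb4, and 1, Hoxb3, acetylation only with a peak of 6 reads, away from the start. In 30 of the 39 the whole window was covered. With H3K27me3 over at least 50% of the window required, 35 Hox, 58 Pax to Tbx and 18 Wnt genes had methylation only. Under the same limit the count fell from 16 to 8 for T and B cell markers, from 17 to 11 for myogenic and muscle genes, from 9 to 4 for neutrophil granule genes, from 9 to 5 for fibroblast and endothelial markers and from 32 to 22 for collagen genes, and stayed at 9 for erythroid and progenitor genes. Sox and forkhead genes had 48 of 59 with methylation only (Foxf1, Sox8, Sox1 and Foxf2 at 100%), and 4 with acetylation only, the broadly expressed Foxo3 (33 reads), Foxn3 (22), Foxj3 (21) and Foxp1 (21). Collagen genes had 32 of 42 with methylation only, 9 with neither, and Col26a1 with both, where the 809 bp of an H3K27ac peak of 6 reads that reach into the window lay under H3K27me3. Ion channel and neurotransmitter receptor genes had 109 of 158 with methylation only and 6 with acetylation only, among them Kcnk13 (16 reads), Kcnk6 (14) and Kcnj2 (13).

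**Figure D4:**
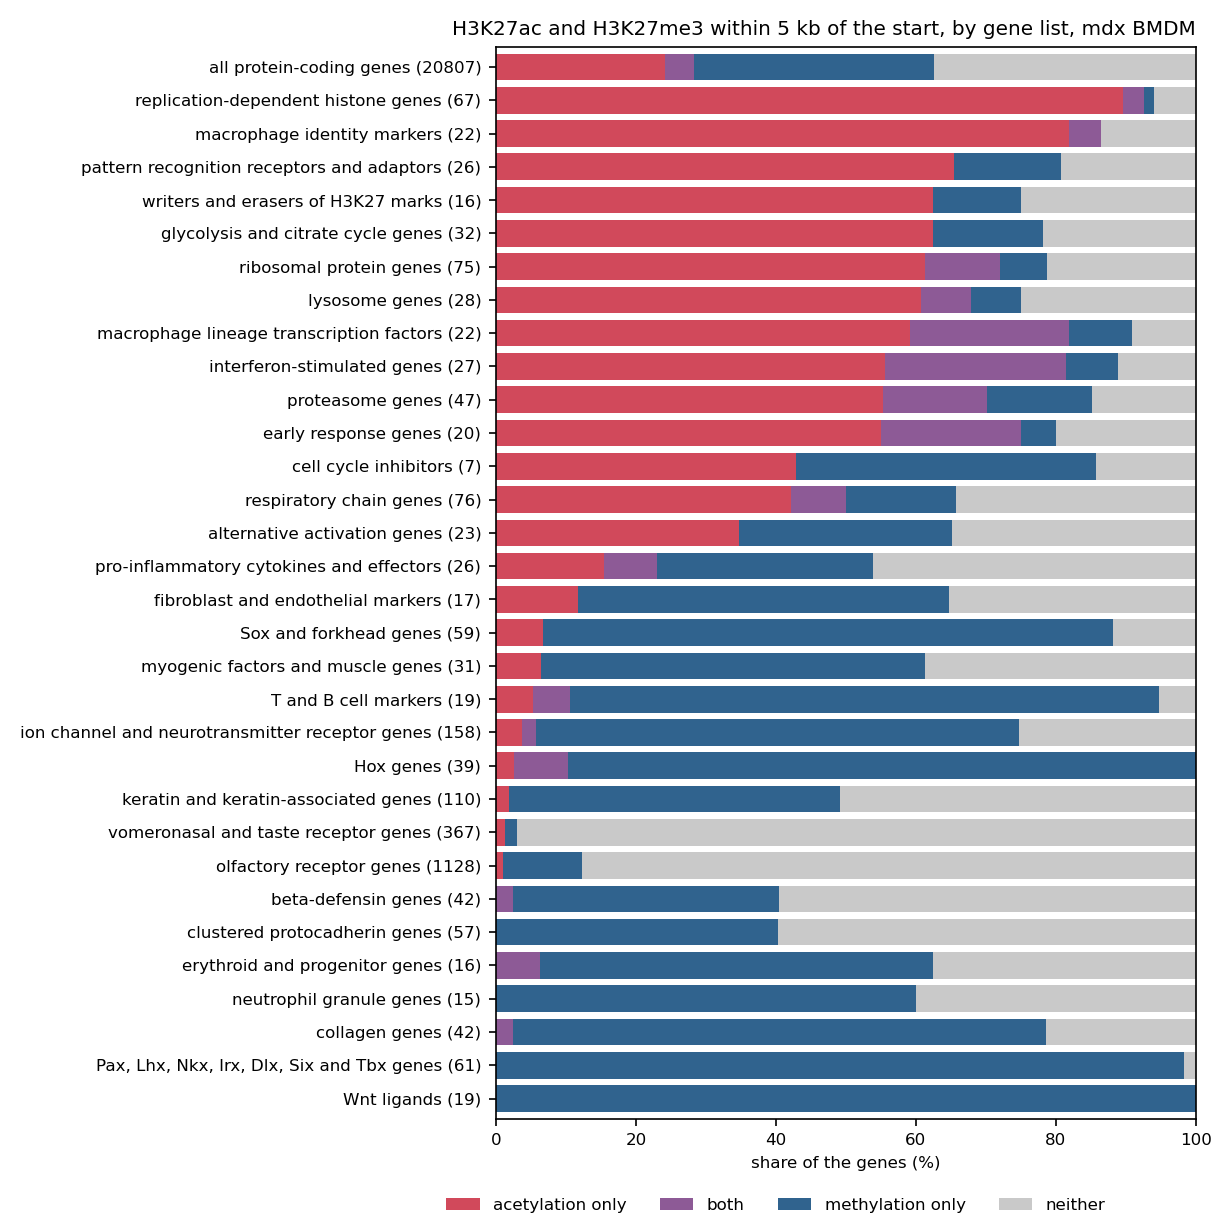
Share (%) of the genes of each list with acetylation only (red), both marks (purple), methylation only (blue) or neither (grey) within 5 kb of the start in mdx BMDM; the number of genes is in parentheses, the top bar holds all 20807 genes, and the lists below it are ordered by the share with acetylation only. The replication-dependent histone genes have 89.6% acetylation only, the Wnt ligands 100% methylation only, and the vomeronasal and taste receptors 97.0% neither.

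Most sensory receptor genes had neither mark. Of 1128 olfactory receptor genes 990 had neither, 127 methylation only and 11 acetylation only, and of 367 vomeronasal and taste receptor genes 356 had neither. Together the sensory receptors were 1346 of the 7774 genes with neither (17.3%). Clustered protocadherin genes had 34 of 57 with neither and 23 with methylation only, keratin and keratin-associated genes 56 and 52 of 110, and beta-defensin genes 25 and 16 of 42. In that order, neither made up 59.6, 50.9 and 59.5%, against 37.4% of all genes. Methylation only made up 40.4, 47.3 and 38.1%, against 34.3% of all genes. These families hold many close copies, and Bowtie2 with default settings, as stated in the methods of the study, reports 1 place for a read that fits several. Any later filter on such reads is not given in the sources used here. Genes with neither mark lay a median of 67.3 kb from the nearest H3K27ac peak and 67.7 kb from the nearest H3K27me3 peak, and 4492 of them (57.8%) were more than 50 kb from any H3K27ac peak. Genes with methylation only were a median of 64.8 kb from H3K27ac, and genes with acetylation only a median of 34.8 kb from H3K27me3.

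The 3 lists that the study chose beforehand for their function differed in their mix. The pro-inflammatory and anti-inflammatory lists share members, AA467197 among them. Of all genes, 24.2% had acetylation only, 34.3% methylation only, 4.09% both and 37.4% neither. Of 679 pro-inflammatory genes found in the annotation, 284 had acetylation only (41.8%), 150 methylation only (22.1%), 51 both and 194 neither, and of 762 anti-inflammatory genes 267 (35.0%), 209 (27.4%), 44 and 242. Of 59 pro-fibrotic genes, 8 had acetylation only (13.6%), 39 methylation only (66.1%), 3 both and 9 neither. The acetylated pro-fibrotic genes were led by Tgfbr2 (49 reads), Tgfb1 and Gdf15 (33), the methylated ones by Inhbb, Sim1, Bmp7 and Twist1 at 100%, and Fgfr2, Smad3 and Acvr2b had both.

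Ranked by H3K27ac reads, the leading genes with acetylation only lay in a few dense peaks. These reads are not scaled for length or input, and whether they reflect acetylation was not tested. The 10 genes with acetylation only and the most H3K27ac reads were Gm10715, Gm10717, Gm10718, Gm10719, Gm10720, Gm10721, Gm10722, Gm11168 and Gm17535, all in 1 peak of 38.6 kb with 8710 reads on chromosome 9 (2999801 to 3038400), and Gm10800 on chromosome 2 with 3306. The 300 bases around the start of Gm10715 were 92.3% masked as repeat in the reference genome. That share is not given for the other genes named here. The stretch before that start (chr9:3036627-3036876, plus strand) is shown because it carries the strongest peak of the list, again with CG in capitals.
Gm10715: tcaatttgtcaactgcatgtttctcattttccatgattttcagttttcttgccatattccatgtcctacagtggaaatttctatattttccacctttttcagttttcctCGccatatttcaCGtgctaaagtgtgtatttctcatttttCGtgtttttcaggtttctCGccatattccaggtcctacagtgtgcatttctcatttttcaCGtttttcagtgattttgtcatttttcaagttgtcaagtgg
In all, 10 H3K27ac peaks exceeded 100 reads per kb. They held 8.30% of the reads in peaks and touched 12 genes, and without them 5024 genes had acetylation only. The genes next in order, named after their values were seen, included Psap (281 reads), Zeb2 (216), Ctsb (215), Irf2bp2 (204), Apobec1 (189), Gm10382 (186), C1qb (180), Gm21188 (172) and Clec2d (170), among them lysosomal, complement and C-type lectin genes of macrophages.

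At the methylated end, the densest fully covered genes were H2-Q6, H2-Q7, H2-Q10 and Pou5f1, which share a domain of 142.4 kb on chromosome 17 (35374401 to 35516800) at 134 reads per kb. Next came Rfx4 (113 reads per kb), Cttn (110), Prdm12 (107) and, at 104, Gm28308, Hoxa10 and Hoxa11. The H2-Q genes are non-classical MHC class I genes with close copies, and Pou5f1 encodes the pluripotency factor OCT4. H2-Q4, in the same domain, had an H3K27ac peak of 10 reads over its start and so belonged to the genes with both marks. Some domains held several starts. The domain over Hoxc4 to Hoxc13 on chromosome 15 was 291.0 kb long with 9 starts. That over Hoxb5 to Hoxb13 was 213.2 kb long with 8. The longest run of starts was 10, from Prss34 to Sox8 on chromosome 17, over 289.8 kb. Such domains were not the rule: of the H3K27me3 peaks that touched a window, 14.9% touched the windows of several genes. Neighbouring genes often shared a class, in all 4 classes, and the reason was not tested. The next gene along the chromosome had methylation only for 55.9% of the genes with methylation only, acetylation only for 44.7% of those with acetylation only, both for 17.5% of those with both, and neither for 60.7% of those with neither. The shares of all genes were 34.3, 24.2, 4.09 and 37.4%. Chromosome 15 had the highest share of methylation only (48.9%) and chromosome 7, home of many sensory receptors, the highest share of neither (46.0%).

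Among the genes with both marks, C1qa and C1qc had the most bases under both, 3400 and 2865 bp. They encode chains of complement C1q, which macrophages secrete, and 1 H3K27ac peak of 11.2 kb with 101 reads runs over the starts of both. A methylated peak of 3.4 kb with 109 reads (chromosome 4, 136895201 to 136898600) lies wholly inside it, between the starts, and a second methylated domain of 78.8 kb with 6000 reads begins 1998 bp upstream of C1qa. The third chain gene, C1qb, had acetylation only, with 180 H3K27ac reads that include the 101 of the same peak. Next were Plxna2 (2400 bp under both), Alkbh5 and Ppm1l (2200 each), Bahcc1 (2000), Tspan33 (1979), Mymk (1800), Aph1a and BC028528 (1600 each). In Plxna2, Tspan33 and Mymk, a myoblast fusion gene, methylation covered 100% of the window and the H3K27ac peaks held 7 to 9 reads, while Alkbh5 (34 reads) and Ppm1l (22) had the start under H3K27ac and free of H3K27me3. The start base itself lay under both marks in Adra1a, Cd300ld4, Etfa, H2-Q4, Klk1b11, Tmem176a and Tmem176b, with 7 to 17 H3K27ac reads. Tmem176a and Tmem176b, a head-to-head pair, share the H3K27ac peak.

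The classes differed in promoter sequence, which took no part in the sorting. Composition was read over the 300 bases from 250 before the start to 50 after, in 20802 genes. The median ratio of observed to expected CG dinucleotides was 0.77 with acetylation only (quartiles 0.53 and 0.92), 0.70 with both (0.43 and 0.86), 0.50 with methylation only (0.24 and 0.75) and 0.31 with neither (0.12 and 0.73). A ratio over 0.6 was found in 69.5% of the genes with acetylation only (interval 68.2 to 70.8), 63.3% with both (60.0 to 66.5), 40.4% with methylation only (39.2 to 41.5) and 32.7% with neither (31.6 to 33.7), against 45.5% of all. Within the genes with both marks, it was 75.9% where the start lay under H3K27ac alone and 30.3% (22.4 to 39.5) where it lay under H3K27me3 alone. The fully covered genes with methylation only had 44.5%. Without olfactory, vomeronasal and taste receptors, the genes with neither had 39.5% (38.3 to 40.7) and a median ratio of 0.43. That share was close to the 40.4% with methylation only. Among the 9459 promoters over 0.6, 37.0% had acetylation only, 30.5% methylation only, 5.69% both and 26.8% neither, and among the 6901 promoters up to 0.3 the shares were 9.93, 32.8, 2.04 and 55.3%. Methylation was less common in acetylated genes within each stratum, but not to the same degree. It was found at 13.3% of acetylated and 53.2% of other genes with promoters over 0.6, at 16.7 and 58.4% between 0.3 and 0.6, and at 17.1 and 37.2% up to 0.3.

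**Figure D5:**
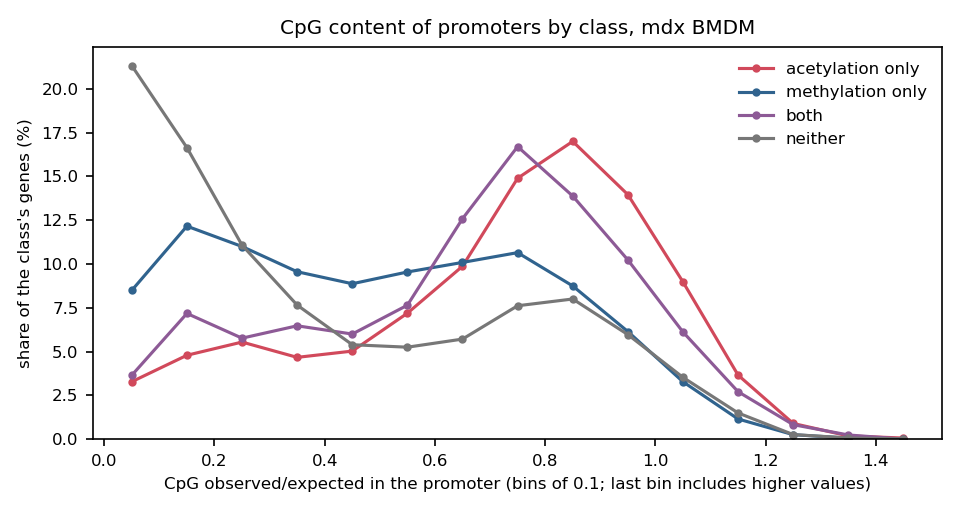
Distribution of the observed/expected ratio of CG dinucleotides over the 300 promoter bases, as the share (%) of each class's genes in bins of 0.1. The classes with acetylation have their highest bins between 0.7 and 0.9, the class with neither has its highest below 0.1, and the class with methylation only is spread over the range.

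Among short motifs, searched on both strands, the GC and TATA boxes differed most between classes. The GC box GGGCGG was present in 58.0% of promoters with acetylation only, 54.6% with both, 45.9% with methylation only and 31.2% with neither, against 43.7% of all promoters. The TATA box TATAAA ran the other way, with 7.55, 7.06, 10.9 and 18.4% against 12.7% of all. Without the olfactory, vomeronasal and taste receptors, the genes with neither had the GC box in 37.6% and the TATA box in 15.1%. GGGCGG itself holds a CG dinucleotide, so its shares are not separate from the CG ratio above. The E-box CACGTG was found in 10.1% with acetylation only and 7.66% with methylation only, and the AP-1 site TGANTCA in 5.11 and 6.66% (all promoters 7.82 and 6.88%). The PU.1 core GAGGAA was as frequent in each class as in all promoters (27.8%), from 27.1% with methylation only to 28.5% with both. The CCAAT box lay between 35.7% (methylation only) and 40.7% (neither), with 38.6% of all promoters. The interferon element GAAANNGAA was found in 8.52% with acetylation only, 8.59% with both, 6.75% with methylation only and 9.93% with neither (all 8.44%), and in 10.9% (8.55 to 13.9) of the genes with both marks whose start lay under H3K27ac alone. In genes with acetylation only and the start under H3K27ac, the share was 8.85% (7.99 to 9.78). TTGCGCAA, a C/EBP sequence, was in 0.192% of all promoters. These windows do not reach into enhancers, where macrophage factors bind for a large part.

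Gene length and spacing differed as well. The median gene was 21.7 kb long with acetylation only, 17.4 kb with both, 19.5 kb with methylation only and 13.4 kb with neither. No other protein-coding start lay within 10 kb of 55.2% of the genes with acetylation only, 63.3% with both, 76.7% with methylation only and 73.7% with neither (all 69.8%). Of the H3K27ac peaks that touched a window, 22.1% touched the windows of several genes, so that 1 peak could count for several neighbours. Among genes with no other start within 10 kb, 19.1% had acetylation only, 37.7% methylation only, 3.71% both and 39.4% neither.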

How the data were processed

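H3K27me3 and H3K27ac were measured by native ChIP-seq (micrococcal nuclease, no crosslinking) in mdx BMDM, with 2 libraries per mark. The submitters' processing notes name CASAVA 1.8, cutadapt 1.15, Bowtie2 2.3.4 and SICER 2.0. The authors mapped the reads to mm10, merged replicates and called peaks (window 200 bp, gap 600 bp, FDR below 0.01). The deposited values are counts of ChIP reads per peak, not scaled for depth, length or input. The WT and mdxTLR4-/- lists were not used here.

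Overlaps with the starts were computed in Python 3.11.15 with numpy 2.4.6 and pandas 2.3.3, and drawn with matplotlib 3.10.9. The class and coverage were recovered in 6000 of 6000 simulated windows. The reads of a gene are summed over all peaks touching its window. Shares carry Wilson 95% intervals, and no test was run. Alternatives were the window, minimum coverage or reads, the H3K27me3 peaks used, the starts and the spacing of genes.

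Named genes were the study's markers and main lineage factors, up to 4 members per list and class (most H3K27ac reads, widest then densest H3K27me3, or alphabetical) or all where a class held 5 or fewer, and the 10 leading genes of each marked class. Members, lists and names were chosen with earlier results of these data known. Promoter bases came from the RefSeq genome GRCm38.p6, without 5 genes with unknown bases. A few genes that these rules name are not reported here.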

Additional observations from a re-analysis of the deposited data

How the results depend on the processing

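The ratio of the methylated share, 3.31 in genes without against genes with acetylation, kept its direction under 13 of 13 alternatives. It was 15.5, 6.07 and 2.00 with windows of 1, 2.5 and 10 kb, and 3.97 with the 5 kb upstream only. It was 4.83 and 16.8 with methylation over at least 20 and 50% of the window, 3.63 and 4.42 with H3K27ac peaks of at least 10 and 20 reads, 4.87 with the densest H3K27me3 peaks in equal number to the H3K27ac peaks, 2.82 with every transcript start, and 3.01 among genes with no other start within 10 kb. In the same order, the count of genes with both marks was 124, 380 and 1849, then 552, then 512 and 103, then 529 and 163, then 395, 1093 and 539, against 851. Wider windows and looser limits include more bases or peaks by construction. Genes with acetylation only were 1588 with peaks of at least 20 reads and 2778 among the spaced genes, which are fewer to begin with, and genes with methylation only were 4383 at 50% coverage. The count with neither mark stayed within 1.5 times under all 13. Leaving out the H3K27ac peaks over 100 reads per kb was added after the data were seen. No paired analysis was possible because the authors merged the replicates into 1 list per mark, and for the same reason no replicate could be left out. The low read numbers of H3K27ac limit the classes: 732 acetylated genes had only 5 to 7 reads, and a gene without an H3K27ac peak may carry acetylation that was not detectable at this depth.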
